A study of Homo sapiens with 9 samples.

Results

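The genes described here build the extracellular matrix or modify it: collagens, laminins, adhesive glycoproteins, hyaluronan synthases and the enzymes that process collagen. The list holds 44 gene symbols, all of them found among the 61155 symbols of the count tables. Of these, 40 passed the filter on low counts and were tested together with all 17759 genes that passed it. The filter left out COL1A2, COL3A1, THBS2 and SPOCK1, which had 0 to 2, 1 to 9, 0 to 2 and 1 to 14 counts per library. RNA was sequenced in 9 libraries of MDA-MB-231, a widely used human line of triple-negative breast cancer. Each of 2 clones labelled as FBXL12 knockouts, KO1 and KO2, gave 3 libraries, and cells given a scrambled guide RNA (WT) gave 3. FBXL12 encodes an F-box protein, the subunit by which an SCF ubiquitin ligase recognises its substrate, and the study's title concerns recovery from replication stress. Each knockout line is a clone, so the genotype was sampled in 2 clones against 1 control population, and both comparisons with WT share the same WT libraries. The labels do not say that the libraries of a group came from separate cultures, so p-values reflect how much these libraries vary, and that variation may be technical alone.

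The extracellular matrix is a mesh of secreted proteins and sugars that cells build around themselves. Fibrillar collagens give it tensile strength, while collagen IV, laminins and heparan sulfate proteoglycans form the thin basement membrane under epithelia. Collagen chains are hydroxylated and folded inside the endoplasmic reticulum and are crosslinked by lysyl oxidases after secretion. Hyaluronan, by contrast, is a sugar chain made by synthases at the plasma membrane, and versican binds to it. In a tumour, carcinoma cells contribute part of the matrix and fibroblasts usually supply most fibrillar collagen.

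FBXL12 RNA was measured at 9.56, 9.95 and 9.40 CPM in KO1 and 6.14, 6.36 and 5.33 CPM in KO2, against 22.2, 23.3 and 21.4 CPM in WT. The log2 change from WT was -1.21 ± 0.08 in KO1 and -1.91 ± 0.08 in KO2 (adjusted p = 2.65e-08 and 7.29e-11), and the gene was still detected in each knockout library. CPM values are counts relative to the TMM-scaled library total, errors of log2 changes are standard errors, and a gene was called higher or lower at a Benjamini-Hochberg adjusted p under 0.05 in edgeR's quasi-likelihood test over all genes. Total counts ran from 52427841 to 97243363 per library. The 44 genes took 0.582% to 0.626% of counts in KO1 and 0.500% to 0.507% in KO2, against 0.486% to 0.506% in WT. Of 5 mesenchymal genes VIM, AXL, ZEB1 and CD44 were expressed, and CDH2, the cadherin of mesenchymal cells, had at most 37 counts in any library. CD44, a hyaluronan receptor, was at 1350 to 1390 CPM in KO1 and 1740 to 1790 CPM in KO2, against 1000 to 1060 CPM in WT. The labels call the cells basal-like, yet the basal keratins KRT5 and KRT14 had at most 1 and 28 counts and the epithelial cadherin CDH1 at most 8. The simple keratins KRT8, KRT18 and KRT19 were expressed, at 318 to 457, 380 to 485 and 156 to 240 CPM over all libraries, and 10 breast epithelial markers summed to 927 to 1070 CPM in KO1 and 998 to 1090 CPM in KO2, against 1120 to 1260 CPM in WT. Of 7 fibroblast markers only PDGFRB passed the filter, LUM and DPT were at 0, and the summed level was 1.65 to 2.05 CPM in KO1 and 1.89 to 2.14 CPM in KO2, against 1.06 to 1.36 CPM in WT. Endothelial markers, 3 of 5 tested, summed to 21.7 to 22.4 CPM in KO1 and 19 to 21.5 CPM in KO2, against 14.7 to 15.7 CPM in WT, nearly all of it KDR. Pericyte markers, 4 of 5 tested, summed to 14 to 15.4 CPM in KO1 and 25.8 to 28.1 CPM in KO2, against 15.7 to 18.2 CPM in WT, most of it CSPG4. The part of these markers in the matrix results was not tested. In bulk RNA, fewer cells that express a gene and less RNA per cell cannot be told apart.

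Levels spanned several orders of magnitude when counts were divided by transcript length. THBS1, the gene of thrombospondin 1, a secreted glycoprotein that binds cells, matrix and growth factors, was the highest in every group, at 222 CPM per kb in KO1 and 114 CPM per kb in KO2, against 135 CPM per kb in WT. LAMB3, a β chain of epithelial laminin, was next at 103, 114 and 125 CPM per kb in KO1, KO2 and WT, in KO2 level with THBS1. LOXL2, an enzyme that crosslinks collagen and elastin, followed over the 9 libraries with a mean of 81.3 CPM per kb. In WT, 20 of the 44 genes lay above 10 CPM per kb and 13 lay under 1 CPM per kb. Among the low ones were all 5 fibrillar collagens but COL5A1, which was the highest of them at 2.84 CPM per kb over all libraries. The chains of collagen I, the main fibrillar collagen of connective tissue, reached at most 0.609 CPM per kb in any group (COL1A1) and 0 to 2 counts per library (COL1A2).

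Many of these genes differed from WT in the clones, as did many of all tested genes. In opposite directions 10 were called, where 7.51% of all tested genes were. In KO1, 15 of the 40 tested genes were higher and 5 lower than in WT, where 18% of all tested genes were higher and 16.8% lower, 34.8% in all. In KO2, 12 were higher and 13 lower, where 24.7% of all genes were called in each direction, 49.4% in all. The median log2 change was 0.09 in KO1 and 0.035 in KO2, against -0.005 and -0.008 over all tested genes. Neither median depends on how far above it the fitted change of COL6A2 lies. For the mean of both clones against WT, 15 were higher and 5 lower, where 20.4% of all genes were called in each direction and 40.8% in all, and without the second WT library 3 were lower. Libraries of KO1 and WT did not overlap for 21 of the 40 genes, where 46.5% of all tested genes did not, and those of KO2 and WT for 28, where 58.8% of all did not. Among genes whose mean log2 CPM reached 2, 31 of them matrix genes, 15 were called in KO1, 19 in KO2 and 17 for the mean of both clones, where 45.7%, 59.6% and 51.7% of all such genes were. With the trend of each library with GC content removed, 25 genes were higher and 3 lower in KO1, beside 24.6% and 14.8% of all genes. In KO2 the same correction gave 19 higher and 13 lower, beside 31.4% and 23.3% of all genes. For the mean of both clones it gave 24 higher and 4 lower, beside 27.4% and 18% of all genes.

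**Figure D1:**
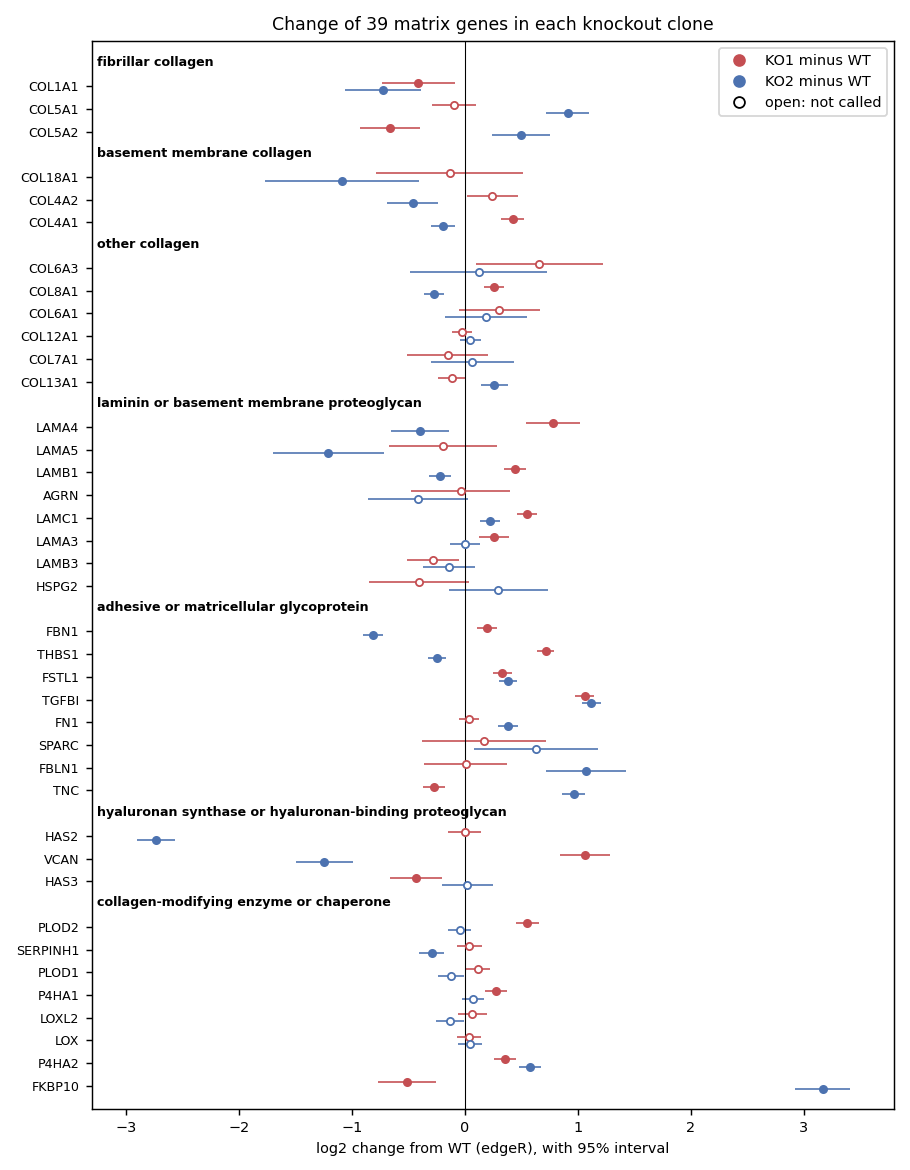
Log2 change from WT with its 95% interval for 39 matrix genes, grouped by role, KO1 and KO2 as separate points, filled where the gene was called at an adjusted p under 0.05. TGFBI lies near 1.1 in both clones, while VCAN, THBS1 and FBN1 lie above 0 in KO1 and below 0 in KO2, and FKBP10 lies at 3.17 in KO2 alone.

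Among basement membrane collagens, COL4A1 and COL4A2 encode the chains that make up the commonest collagen IV trimer. Both were higher in KO1 than in KO2. Of the 3 collagens of this kind, 1 was higher and none lower in KO1, where 18% and 16.8% of all tested genes were. In KO2 all 3 were lower, where 24.7% of all tested genes were. COL4A1 was at 98.4, 89.2 and 92.3 CPM in KO1 and 60.9, 62.8 and 58.9 CPM in KO2, against 68, 71.7 and 69.3 CPM in WT. The groups did not overlap, with WT between the clones. The log2 change was 0.42 ± 0.05 in KO1 (adjusted p = 9.17e-06) and -0.19 ± 0.05 in KO2 (adjusted p = 0.00389). COL4A2 was at 204, 162 and 177 CPM in KO1 and 111, 118 and 103 CPM in KO2, against 138, 169 and 152 CPM in WT. In KO1 the second library lay within the WT range and the gene did not pass the test (0.24 ± 0.10, adjusted p = 0.0861), which it did without that library (0.32) or the second WT library (0.33). COL4A2 also passed in KO1 with the GC trend removed (0.36), in DESeq2 (0.25) and with no filter on low counts (0.25). Every KO2 library lay below every WT library (-0.46 ± 0.10, adjusted p = 0.0039). COL18A1, the collagen whose C-terminal fragment is endostatin, was at 12.8, 7.62 and 9.77 CPM in KO1 and 5.95, 6.40 and 3.23 CPM in KO2, against 9.58, 12.5 and 11.1 CPM in WT. It was lower in KO2 (-1.09 ± 0.29, adjusted p = 0.0166) and overlapped with WT in KO1 (-0.13 ± 0.28, adjusted p = 0.747). Without the second WT library its KO2 change was -0.99 and no longer passed the test.

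COL4A1 and COL4A2 lie head to head on chromosome 13, and their start sites in RefSeq (GRCh38.p14) are 127 bases apart on opposite strands, so their promoter windows share 226 bases. The windows, from 250 bases before to 50 bases after the start, are shown because the log2 changes of both genes had the same sign in each clone, although COL4A2 passed the main test in KO2 only. COL4A1 runs over chr13:110307108-110307407 on the minus strand and COL4A2 over chr13:110307034-110307333 on the plus strand. Capitals mark 4 motifs that were searched on both strands, namely the TATA box TATAAA, the AP-1 site TGANTCA, the GC box GGGCGG and the CCAAT box, each as read or as its reverse complement.
COL4A1: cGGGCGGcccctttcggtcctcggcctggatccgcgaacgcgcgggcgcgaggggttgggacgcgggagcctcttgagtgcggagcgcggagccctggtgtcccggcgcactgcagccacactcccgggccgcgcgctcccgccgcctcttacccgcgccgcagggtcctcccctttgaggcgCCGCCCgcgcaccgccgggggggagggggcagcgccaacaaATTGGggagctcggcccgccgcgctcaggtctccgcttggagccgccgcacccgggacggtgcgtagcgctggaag
COL4A2: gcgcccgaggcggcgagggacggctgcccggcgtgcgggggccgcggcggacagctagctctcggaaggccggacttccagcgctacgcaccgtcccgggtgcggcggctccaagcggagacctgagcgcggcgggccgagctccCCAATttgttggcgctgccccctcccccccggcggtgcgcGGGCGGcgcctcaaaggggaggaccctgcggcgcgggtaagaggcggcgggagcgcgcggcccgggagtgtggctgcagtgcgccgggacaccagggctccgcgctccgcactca
The CCAAT match and 1 of the GC boxes are the same bases in both windows, read from either strand. A GC box stood in 29 of 40 windows of the matrix genes (72.5%; 33 genes matched a window, some with several starts) and in 45.0% of all 35116 windows. The matrix windows held 51.3% to 86.7% GC, most of them more than the median of 58.7% over all windows. Windows of like GC content were not compared. CCAAT stood in 22.5% of the matrix windows and 34.6% of all, TATAAA in 15.0% and 11.5%, and TGANTCA in 5.0% and 7.7%. A match is a description of the letters and not evidence of binding. In GENCODE 29 the annotated genes COL4A1 and COL4A2 overlap by 1422 bases, and since the strand setting of the counting is not known, reads from the overlap cannot be assigned with certainty.

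Laminins are trimers of 1 α, 1 β and 1 γ chain that assemble the basement membrane. Of 8 laminin and basement membrane proteoglycan genes, 4 were higher and 0 lower in KO1, where 18% and 16.8% of all tested genes were. In KO2, 1 was higher and 3 lower, where 24.7% of all tested genes were called in each direction. LAMC1, the γ chain of most laminins, was higher in both clones, at 302, 294 and 306 CPM in KO1 and 239, 229.8 and 249 CPM in KO2, against 201, 203 and 213 CPM in WT. Its log2 change was 0.55 ± 0.04 in KO1 (adjusted p = 1.45e-07) and 0.22 ± 0.04 in KO2 (adjusted p = 0.000434), with no overlap between groups. LAMB1, a β chain that pairs with it, was at 97, 99.4 and 97.3 CPM in KO1 and 64, 59.1 and 61.9 CPM in KO2, against 70.1, 70.7 and 75 CPM in WT. Its level was higher in KO1 (0.45 ± 0.05, adjusted p = 3.08e-06) and lower in KO2 (-0.22 ± 0.05, adjusted p = 0.00093). LAMA4, an α chain best known from blood vessels and muscle, was at 5.65, 5.18 and 5.30 CPM in KO1 and 2.75, 2.23 and 2.16 CPM in KO2, against 2.99, 3.34 and 3.07 CPM in WT. It followed the same split (0.78 ± 0.11, adjusted p = 8.37e-05 in KO1, -0.40 ± 0.12, adjusted p = 0.0129 in KO2), and its KO2 call was lost without the third KO2 library (-0.34) or the second WT library (-0.35). LAMA5, the α chain of adult epithelial basement membranes, was at 89.9, 54.8 and 75.7 CPM in KO1 and 36.9, 41.1 and 31 CPM in KO2, against 74.7, 94.5 and 82.6 CPM in WT. KO2 was lower than WT (-1.21 ± 0.21, adjusted p = 0.00264), and KO1 overlapped with WT (-0.19 ± 0.20, adjusted p = 0.513). The 20 expressed protein-coding genes around LAMA5, 10 on each side, had a median log2 change of -0.56 in KO2.

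LAMA3, the α chain that joins LAMB3 in an epithelial laminin, was higher in KO1 at 37.2, 33.4 and 36.9 CPM in KO1 and 29.1, 29 and 31.9 CPM in KO2, against 31.9, 29.1 and 28.8 CPM in WT. The log2 change was 0.26 ± 0.06 in KO1 (adjusted p = 0.00544), where its neighbouring genes had a median of 0.33, and 0.00 ± 0.06 in KO2 (adjusted p = 0.987). LAMB3 was at 493, 384 and 452 CPM in KO1 and 492, 519 and 457 CPM in KO2, against 494, 589.8 and 532 CPM in WT. It passed the test in neither clone (-0.28 ± 0.10, adjusted p = 0.0594 and -0.14 ± 0.10, adjusted p = 0.289), though it did in KO1 without the first KO1 library (-0.35) or the first WT library (-0.33). Of the heparan sulfate proteoglycans, AGRN (agrin) and HSPG2 (perlecan) passed it in neither clone either. AGRN had log2 changes of -0.03 ± 0.18 in KO1 (adjusted p = 0.908) and -0.41 ± 0.19 in KO2 (adjusted p = 0.11), and HSPG2 of -0.41 ± 0.18 in KO1 (adjusted p = 0.138) and 0.30 ± 0.18 in KO2 (adjusted p = 0.232). Without the first KO1 library HSPG2 was lower in KO1 (-0.56). The 12 neighbouring genes of AGRN had medians of -0.40 in KO1 and -0.36 in KO2.

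Fibrillar collagens were low, and 3 of 5 could be tested. In KO1, 0 were higher and 2 lower, where 18% and 16.8% of all tested genes were. In KO2, 2 were higher and 1 lower, where 24.7% of all tested genes were called in each direction. COL5A1, the chain that helps to start fibrils of collagen I, was at 19.5, 14.8 and 18.7 CPM in KO1 and 37.6, 36.5 and 32.6 CPM in KO2, against 18.4, 19.2 and 19.3 CPM in WT. All KO2 libraries lay above all others (0.91 ± 0.09, adjusted p = 1.36e-06), and KO1 overlapped with WT (-0.10 ± 0.09, adjusted p = 0.43). COL5A2, its partner chain, was at 1.62, 1.47 and 1.51 CPM in KO1 and 3.35, 3.73 and 3.19 CPM in KO2, against 2.53, 2.21 and 2.53 CPM in WT. COL5A2 was lower in KO1 (-0.66 ± 0.13, adjusted p = 0.000847) and higher in KO2 (0.50 ± 0.12, adjusted p = 0.00318), where its neighbouring genes had a median of 0.53. COL1A1 was at 3.53, 2.49 and 3.16 CPM in KO1 and 2.66, 2.40 and 2.37 CPM in KO2, against 3.24, 4.54 and 4.51 CPM in WT. KO2 libraries all lay below WT (-0.72 ± 0.16, adjusted p = 0.00134) and the gene just passed the test in KO1 (-0.41 ± 0.15, adjusted p = 0.0462), where the lowest WT library lay within the KO1 range. With the GC trend removed the KO1 change was -0.14 and did not pass, and it also failed without any 1 library other than the first of WT or of KO1 (-0.42 to -0.28).

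Among the other collagens, the non-fibrillar COL8A1 and COL13A1 were the most abundant. Of 7 such collagens, 2 were higher and 0 lower in KO1, where 18% and 16.8% of all tested genes were. In KO2, 2 were higher and 1 lower, where 24.7% of all tested genes were called in each direction. COL8A1, a short-chain collagen of vessel walls and Descemet's membrane, was at 311, 305 and 315 CPM in KO1 and 217, 213 and 214 CPM in KO2, against 246, 269 and 265 CPM in WT. The groups did not overlap, with a change of 0.26 ± 0.04 in KO1 (adjusted p = 0.000193) and -0.27 ± 0.04 in KO2 (adjusted p = 4.75e-05). COL13A1, a transmembrane collagen of cell adhesions, was at 195, 169 and 187 CPM in KO1 and 239, 253 and 225 CPM in KO2, against 189, 208 and 202 CPM in WT. KO2 was higher (0.26 ± 0.06, adjusted p = 0.00154), with KO1 overlapping WT (-0.12 ± 0.06, adjusted p = 0.13). COL12A1, which coats the surface of fibrils, and COL7A1, which forms the anchoring fibrils of skin, passed the test in neither clone. COL12A1 had log2 changes of -0.02 ± 0.04 in KO1 (adjusted p = 0.699) and 0.05 ± 0.04 in KO2 (adjusted p = 0.356), and COL7A1 of -0.15 ± 0.17 in KO1 (adjusted p = 0.524) and 0.07 ± 0.17 in KO2 (adjusted p = 0.777).

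COL6A2 stood apart from its partner chains of collagen VI, which forms beaded microfilaments around cells. It had 1, 3 and 4 counts in the KO1 libraries and 49, 66 and 53 in the KO2 libraries, against 0 in each WT library. Set against a floor of 3 counts over the WT group, or 0.0135 CPM, the pooled KO2 level was 68.5 times that floor and the pooled KO1 level 2.43 times. These ratios leave out the counting error of the knockout counts, which matters most for the 8 counts summed over KO1. Both clones passed the test (adjusted p = 0.0186 in KO1 and 1.93e-07 in KO2), but the KO1 call was lost without the third KO1 library (adjusted p = 0.0565) or the first WT library (adjusted p = 0.054). COL6A2 passed the filter on low counts only through KO2, the group where it is high. Its calls therefore describe a gene selected by that group and are not independent support for a change. COL6A1, which lies 93046 bases away on chromosome 21, was at 14.3, 10.01 and 11.7 CPM in KO1 and 11.3, 12.6 and 9.38 CPM in KO2, against 8.66, 11.7 and 8.90 CPM in WT. It passed the test in neither clone (0.31 ± 0.16, adjusted p = 0.171 and 0.19 ± 0.16, adjusted p = 0.369), and neither did COL6A3 (0.66 ± 0.26, adjusted p = 0.0659 and 0.12 ± 0.28, adjusted p = 0.752). Without the second WT library COL6A1 passed it in KO1 (0.47), and COL6A3 did without the first WT library (0.93). The COL6A2 window, chr21:46097862-46098161 on the plus strand, is shown because the gene had a low but steady count in KO2, against 0 in WT.
COL6A2: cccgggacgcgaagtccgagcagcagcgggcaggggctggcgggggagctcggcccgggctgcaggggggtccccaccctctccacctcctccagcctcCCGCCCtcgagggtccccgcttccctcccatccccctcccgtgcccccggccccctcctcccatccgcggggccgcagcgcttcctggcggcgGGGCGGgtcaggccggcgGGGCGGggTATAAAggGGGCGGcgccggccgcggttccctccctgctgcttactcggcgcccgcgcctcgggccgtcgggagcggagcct
It holds 4 GC boxes and a TATAAA match, in capitals.

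Of the adhesive and matricellular glycoproteins, 8 of 10 could be tested. In KO1, 4 were higher and 1 lower, where 18% and 16.8% of all tested genes were. In KO2, 5 were higher and 2 lower, where 24.7% of all tested genes were called in each direction. TGFBI encodes a secreted protein that binds integrins and collagen and is named for its induction by TGF-β. It was at 157, 156 and 155 CPM in KO1 and 167, 159.9 and 161 CPM in KO2, against 74.8, 73.2 and 76.5 CPM in WT. Every knockout library lay above every WT library, with a log2 change of 1.06 ± 0.04 in KO1 (adjusted p = 7.2e-11) and 1.12 ± 0.04 in KO2 (adjusted p = 9e-12). The clones differed by -0.06 ± 0.04 (adjusted p = 0.231), and the neighbouring genes had medians of -0.02 and -0.05. FSTL1, a secreted relative of SPARC, was at 467, 498 and 484 CPM in KO1 and 505, 483 and 510.1 CPM in KO2, against 389, 378 and 383 CPM in WT. All knockout libraries lay above WT (0.33 ± 0.04, adjusted p = 1.1e-05 in KO1 and 0.38 ± 0.04, adjusted p = 9.99e-07 in KO2).

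THBS1 changed in opposite directions. It was at 1737, 1729 and 1722 CPM in KO1 and 881, 869 and 912 CPM in KO2, against 1027, 1073 and 1058 CPM in WT. The groups did not overlap, and the log2 change was 0.72 ± 0.04 in KO1 (adjusted p = 1.74e-09) and -0.25 ± 0.04 in KO2 (adjusted p = 3.69e-05). Its neighbouring genes had medians of 0.30 and -0.32, so in KO2 the region's median was as low as THBS1 itself. FBN1, the fibrillin of elastic microfibrils, also lies on chromosome 15 and was at 107, 104 and 109 CPM in KO1 and 53.5, 52.2 and 53.1 CPM in KO2, against 94.7, 89.5 and 94.8 CPM in WT. FBN1 was higher in KO1 (0.20 ± 0.04, adjusted p = 0.00203) and lower in KO2 (-0.81 ± 0.04, adjusted p = 8.43e-10), with neighbours at 0.21 and -0.30. The promoter windows of TGFBI (chr5:136028738-136029037) and THBS1 (chr15:39580829-39581128), both on the plus strand, are shown because TGFBI rose in both clones and THBS1 rose in KO1 and fell in KO2.
TGFBI: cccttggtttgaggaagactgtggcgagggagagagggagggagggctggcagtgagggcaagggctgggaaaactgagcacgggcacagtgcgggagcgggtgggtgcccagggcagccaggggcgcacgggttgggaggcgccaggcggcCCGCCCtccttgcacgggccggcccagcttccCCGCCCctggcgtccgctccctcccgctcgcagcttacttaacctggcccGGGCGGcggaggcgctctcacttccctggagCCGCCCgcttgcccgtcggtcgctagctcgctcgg
THBS1: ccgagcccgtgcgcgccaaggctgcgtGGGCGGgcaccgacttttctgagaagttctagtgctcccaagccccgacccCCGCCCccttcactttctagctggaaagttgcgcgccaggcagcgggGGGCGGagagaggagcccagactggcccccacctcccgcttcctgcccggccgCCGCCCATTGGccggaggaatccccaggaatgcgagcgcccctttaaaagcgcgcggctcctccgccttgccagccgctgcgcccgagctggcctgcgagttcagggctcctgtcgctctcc
Both hold 4 GC boxes, and THBS1 also holds a CCAAT match directly beside one of them.

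TNC, the gene of tenascin C, a glycoprotein of wounds and tumour stroma, was at 102, 92.9 and 97.6 CPM in KO1 and 224, 229 and 238 CPM in KO2, against 113, 119 and 122 CPM in WT. TNC was lower in KO1 (-0.27 ± 0.05, adjusted p = 0.000318) and higher in KO2 (0.96 ± 0.05, adjusted p = 2.71e-10), where neighbouring genes had a median of 0.38. FN1, fibronectin, the main adhesive protein of provisional matrix, was at 334, 314 and 333 CPM in KO1 and 412, 404 and 432 CPM in KO2, against 313, 316 and 329 CPM in WT. The KO2 level was higher (0.38 ± 0.04, adjusted p = 2.07e-06), less than the median of 0.67 of its neighbours there, and KO1 overlapped with WT (0.03 ± 0.04, adjusted p = 0.566). FBLN1, fibulin 1, was near 1 CPM, at 1.09, 0.861 and 0.871 CPM in KO1 and 2.05, 1.96 and 1.91 CPM in KO2, against 0.813, 0.954 and 1.06 CPM in WT. All KO2 libraries lay above the others (1.07 ± 0.17, adjusted p = 6.67e-05), and KO1 overlapped with WT (0.01 ± 0.17, adjusted p = 0.983). SPARC, a collagen-binding glycoprotein passed the test in neither clone (0.17 ± 0.26, adjusted p = 0.654 and 0.63 ± 0.26, adjusted p = 0.055), but did in KO2 without the second KO2 library (0.85).

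**Figure D2:**
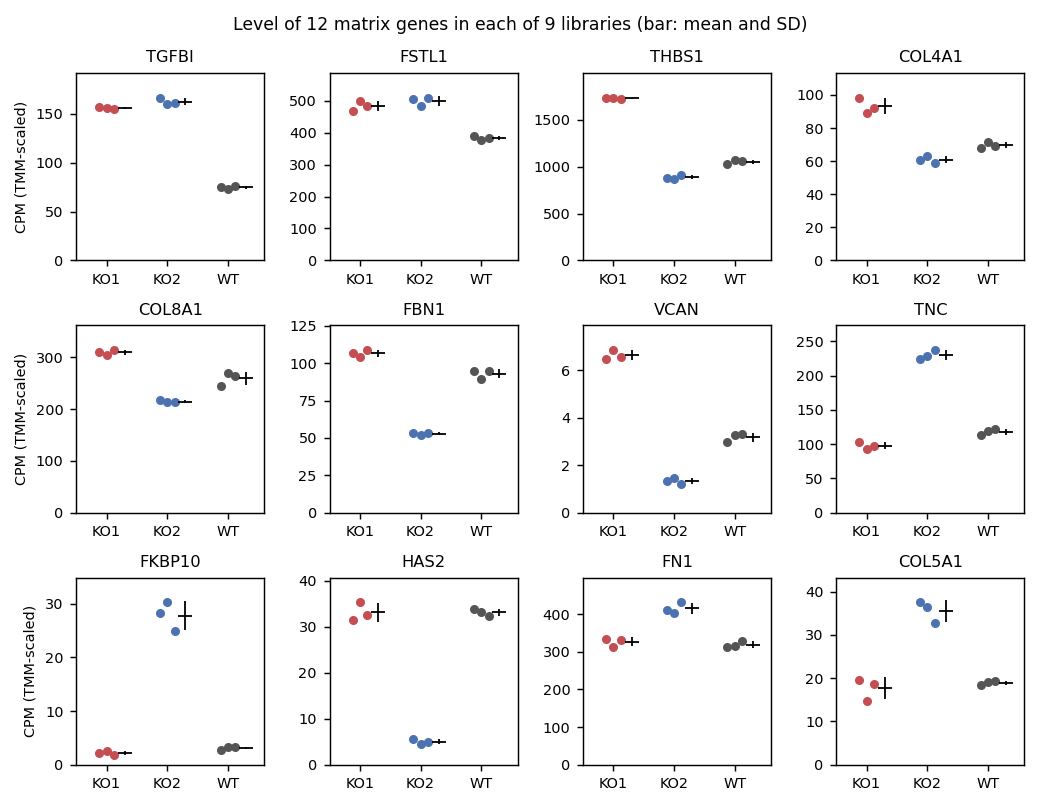
CPM of 12 matrix genes in each of the 9 libraries, KO1, KO2 and WT from left to right in each panel, with the mean and SD of 3 libraries beside the points and each axis starting at 0. TGFBI lies between 155 and 167 in all knockout libraries, against 73.2 to 76.5 in WT, while HAS2 is low in the KO2 libraries alone and THBS1, COL4A1, COL8A1, FBN1 and VCAN have WT between the clones.

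Hyaluronan synthases differed between the clones. HAS2, the synthase of long hyaluronan chains in many cells, was at 31.5, 35.4 and 32.5 CPM in KO1 and 5.55, 4.46 and 5.03 CPM in KO2, against 33.9, 33.1 and 32.4 CPM in WT. KO2 libraries lay far below the others (-2.73 ± 0.08, adjusted p = 1.29e-12), and KO1 overlapped with WT (0.00 ± 0.07, adjusted p = 0.992). The 20 neighbouring genes of HAS2 had a median of -0.25 in KO2. HAS3, a second synthase, was at 3.53, 3.33 and 3.53 CPM in KO1 and 4.59, 4.76 and 4.89 CPM in KO2, against 4.75, 5.20 and 4.08 CPM in WT. It was lower in KO1 (-0.43 ± 0.11, adjusted p = 0.0055), where no library overlapped with WT, and did not pass the test in KO2 (0.02 ± 0.11, adjusted p = 0.881). VCAN, versican, a proteoglycan that binds hyaluronan, was at 6.47, 6.86 and 6.56 CPM in KO1 and 1.34, 1.46 and 1.21 CPM in KO2, against 2.97, 3.26 and 3.31 CPM in WT. No group overlapped with another, and the change was 1.06 ± 0.10 in KO1 (adjusted p = 1.83e-06) and -1.24 ± 0.12 in KO2 (adjusted p = 4.45e-07).

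Of 8 enzymes and chaperones that act on collagen, 3 were higher and 1 lower in KO1, where 18% and 16.8% of all tested genes were. In KO2, 2 were higher and 1 lower, where 24.7% of all tested genes were called in each direction. FKBP10, a peptidyl-prolyl isomerase of the endoplasmic reticulum that helps to fold collagen, was at 2.15, 2.51 and 1.86 CPM in KO1 and 28.2, 30.3 and 24.9 CPM in KO2, against 2.81, 3.24 and 3.29 CPM in WT. It was higher in KO2 (3.17 ± 0.11, adjusted p = 1.07e-11) and lower in KO1 (-0.51 ± 0.12, adjusted p = 0.0039), where the call was lost with the GC trend removed (-0.27, adjusted p = 0.0726). P3H4, a gene of the collagen hydroxylation complex, is annotated on the opposite strand, 75 bases away from FKBP10. P3H4 averaged 13.2 CPM in KO1 and 18.2 CPM in KO2, against 12.5 CPM in WT. P3H4 was higher in KO2 (0.55 ± 0.11, adjusted p = 0.000704) and not called in KO1 (0.08 ± 0.11, adjusted p = 0.593). P4HA2, a catalytic subunit of the prolyl hydroxylase that stabilises the triple helix, was at 63, 60.9 and 64 CPM in KO1 and 75.1, 71.9 and 72.3 CPM in KO2, against 49.4, 50.01 and 47.3 CPM in WT. Every knockout library lay above WT, in KO1 (0.36 ± 0.04, adjusted p = 2.43e-05) and in KO2 (0.58 ± 0.05, adjusted p = 5.94e-08). P4HA1, another catalytic subunit, was at 96, 105 and 99.2 CPM in KO1 and 87.8, 84 and 87.9 CPM in KO2, against 83.8, 83.5 and 80.1 CPM in WT. It was higher in KO1 (0.28 ± 0.04, adjusted p = 0.00023) and did not pass the test in KO2 (0.07 ± 0.04, adjusted p = 0.216), although all KO2 libraries lay above WT.

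PLOD2, a lysyl hydroxylase that favours stable crosslinks, was at 231, 263 and 251 CPM in KO1 and 163, 163 and 167 CPM in KO2, against 171, 165 and 172 CPM in WT. It was higher in KO1 (0.55 ± 0.05, adjusted p = 4.26e-07), and KO2 overlapped with WT (-0.05 ± 0.05, adjusted p = 0.451). SERPINH1, the collagen chaperone HSP47, was at 203, 184 and 196 CPM in KO1 and 158, 156 and 149 CPM in KO2, against 177, 199 and 192 CPM in WT. Its level in KO2 was lower (-0.29 ± 0.05, adjusted p = 0.000207), a change of -0.03 with the GC trend removed, and KO1 overlapped with WT (0.04 ± 0.05, adjusted p = 0.586). LOXL2 was at 333, 286 and 300.0 CPM in KO1 and 257, 282 and 261 CPM in KO2, against 276, 307 and 295 CPM in WT. It passed the test in neither clone (0.07 ± 0.06, adjusted p = 0.411 and -0.13 ± 0.06, adjusted p = 0.0741). Neither did LOX, the lysyl oxidase that crosslinks collagen and elastin (0.04 ± 0.05, adjusted p = 0.596 and 0.05 ± 0.05, adjusted p = 0.469), nor PLOD1, a second lysyl hydroxylase (0.11 ± 0.05, adjusted p = 0.12 and -0.12 ± 0.05, adjusted p = 0.0821). Leaving out 1 library let LOXL2 pass in KO2 in 4 of 9 cases (-0.18 to -0.13), and let PLOD1 pass in KO1 in 2 cases (0.17 and 0.18) and in KO2 in 2 cases (-0.15 and -0.13).

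Called in both clones, 5 genes were higher in each (COL6A2, LAMC1, TGFBI, FSTL1 and P4HA2) and 1, COL1A1, was lower in each, where 7.48% and 7.58% of all tested genes were. Of these, COL6A2 was tested only because its KO2 counts passed the filter. In opposite directions, 10 genes were called, where 7.51% of all tested genes were. COL4A1, COL8A1, LAMA4, LAMB1, THBS1, FBN1 and VCAN were higher in KO1 and lower in KO2, while COL5A2, TNC and FKBP10 were lower in KO1 and higher in KO2. Among genes at a mean log2 CPM of 2 or more, 7 of 31 matrix genes were called in opposite directions, and 10.5% of all such genes were. With the GC trend removed 9 genes were higher in both clones, where 11.4% of all tested genes were, and 13 were called in opposite directions, where 10.6% were, with AGRN, COL6A1, COL13A1 and LOXL2 joining the first set and COL1A1 leaving the lower one. COL4A2, COL18A1, LAMA5 and PLOD2 then joined the genes called in opposite directions, and FKBP10 left them.

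A test of KO1 against KO2 measured the difference between the clones without the WT mean. Its spread was still estimated over all 9 libraries, WT included. Of the 40 genes, 18 were higher and 11 lower in KO1, 72.5% in all, where 48.9% of all tested genes were called (23.9% higher and 24.9% lower). The median difference was 0.20 on the log2 scale, against -0.007 over all tested genes. Of the 83 tested genes of the other matrix lists, described below, 25 were higher and 24 lower in KO1. That is 59% in all, with a median difference of 0.015, so the tilt toward KO1 was not seen in those lists. All 3 basement membrane collagens were higher in KO1 than in KO2, as were 5 of 8 laminins and basement membrane proteoglycans. HAS2 differed by 2.73 ± 0.08 (adjusted p = 5.36e-13) and VCAN by 2.31 ± 0.11 (adjusted p = 2.52e-10), both higher in KO1. FKBP10 differed by -3.68 ± 0.12 (adjusted p = 1.46e-12) and TNC by -1.24 ± 0.05 (adjusted p = 1.06e-11), both lower in KO1. Of the 31 more abundant matrix genes, 24 differed, where 58.4% of all such genes did.

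**Figure D3:**
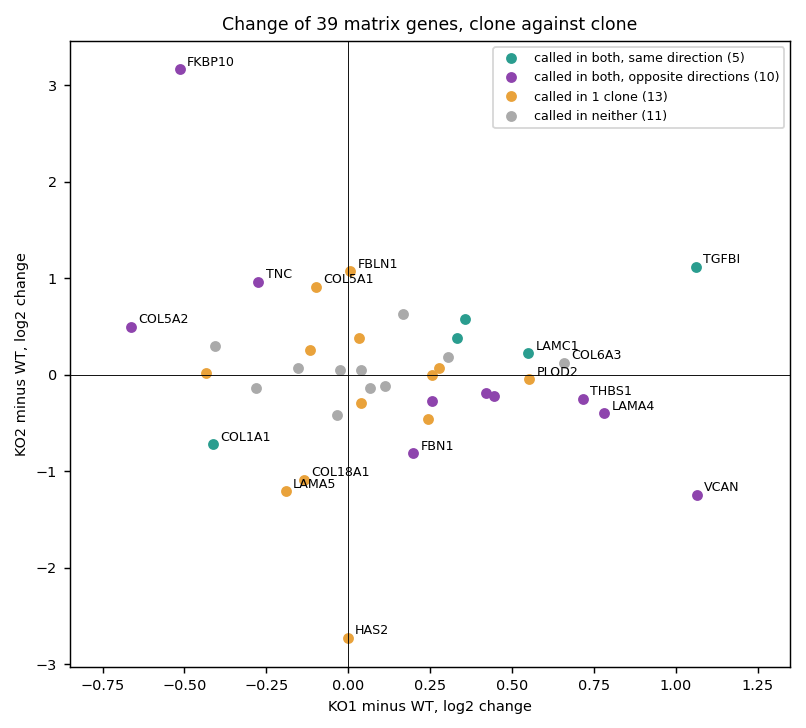
Log2 change from WT in KO1 (horizontal axis) against that in KO2 (vertical axis) for 39 matrix genes, coloured by the calls in the clones; both axes use the same WT libraries. TGFBI lies at 1.06 and 1.12, VCAN at 1.06 and -1.24, FKBP10 at -0.51 and 3.17, and HAS2 at 0 and -2.73.

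The libraries differed in how counts depended on GC content, and this touches the GC-rich matrix genes. The median deviation of 1199 genes with at least 60% GC from their mean over all libraries was 0.10, -0.26 and -0.06 in KO1 and -0.11, -0.03 and -0.28 in KO2, against 0.10, 0.35 and 0.20 in WT. Such GC content is reached by 8 of the 40 genes: AGRN, HSPG2, COL18A1, LAMA5, COL6A1, COL6A2, COL7A1 and COL1A1. Among KO1 libraries the second had the lowest of these medians and also the lowest LAMA5 and COL18A1, at 54.8 and 7.62 CPM. With the trend removed, LAMA5 had a log2 change of 0.20 in KO1 and -0.70 in KO2, and COL18A1 of 0.31 in KO1 and -0.54 in KO2, all of them called. AGRN was then higher in both clones, at 0.40 in KO1 and 0.13 in KO2, and COL6A1 at 0.66 and 0.62. HSPG2 was higher in KO2 at 0.72. Among genes of lower GC content, TGFBI stood at 1.11 and 1.14, THBS1 at 0.71 and -0.26, VCAN at 1.03 and -1.27, and HAS2 at -0.07 and -2.77 in KO1 and KO2.

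Neighbouring genes moved with some members. The median change of the neighbours was above 0.2 in size for 5 of the tested genes in KO1 and for 12 in KO2. It was taken over 20 genes, but over 18 for COL18A1, 17 for COL6A1 and COL6A2, and 12 for AGRN, which lie near a chromosome end. Besides, 9 of the matrix genes overlap a gene on the opposite strand that itself reached 1 CPM, among them LAMB1 with DLD at up to 196 CPM and LAMA5 with ADRM1 at up to 104 CPM. Overlap was taken over whole annotated genes, introns included. Without the strand setting, reads from the bases that such a pair shares cannot be assigned with certainty. LOXL2 also overlaps ENTPD4, at up to 65.9 CPM, on the same strand.

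Other matrix genes that are not in the list were followed in 5 further lists of 135 genes, 83 of them tested. In KO1, 26 were higher and 4 lower, where 18% and 16.8% of all tested genes were, so that 36.1% of them were called beside 34.8% of all genes. Their median change was 0.13, and without the third WT library 7 were lower. In KO2, 30 were higher and 20 lower, or 60.2% called beside 49.4% of all genes, with a median of 0.054. PPIB, cyclophilin B, which speeds collagen folding in a complex with prolyl hydroxylases, averaged 181 ± 10 CPM in KO1 and 42.9 ± 0.966 CPM in KO2, against 152 ± 9.29 CPM in WT (SD, n = 3 each). Its log2 change was 0.25 ± 0.05 in KO1 (adjusted p = 0.0016) and -1.82 ± 0.05 in KO2 (adjusted p = 1.64e-12). CEMIP, a protein needed to break down hyaluronan, averaged 10.3 ± 0.363 CPM in KO1 and 3.24 ± 0.279 CPM in KO2, against 6.16 ± 0.237 CPM in WT, so it too was higher in KO1 (0.74 ± 0.09, adjusted p = 1.35e-05) and lower in KO2 (-0.93 ± 0.10, adjusted p = 1.05e-06). MATN2, a matrilin that links matrix filaments, went the other way, with 18.7 ± 0.96 CPM in KO1 and 61 ± 0.677 CPM in KO2, against 25.4 ± 0.622 CPM in WT. Among the other collagens, COL17A1 of hemidesmosomes was higher in both clones (0.62 ± 0.07, adjusted p = 1.41e-05 in KO1 and 0.59 ± 0.07, adjusted p = 1.04e-05 in KO2).

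Of the hyaluronan genes outside the list, CEMIP2 and HMMR, which binds hyaluronan and the spindle, were higher in both clones, with log2 changes of 0.38 and 0.36 in KO1 and 0.44 and 0.43 in KO2. HAPLN3, a link protein that ties proteoglycans to hyaluronan, had -0.03 in KO1 and fell by 1.22 in KO2. Among collagen-modifying genes, FKBP9 was higher in both clones (0.35 in KO1 and 0.90 in KO2) and the lysyl oxidase LOXL1 lower in both (-0.61 and -1.67). ADAMTS3, a procollagen protease, averaged 1.18 CPM in KO1 and 4.68 CPM in KO2, against 1.11 CPM in WT, and was called in KO2 only. Of the collagens, COL4A4 was higher in KO2 (1.16) and not called in KO1 (-0.15), COL4A5 was higher in both clones (0.43 and 0.26), and COL27A1 was higher in KO1 (0.20) and lower in KO2 (-0.54). The call of COL27A1 in KO1 was lost in several cases where 1 library was left out (0.14 without the first KO1 library, for instance), and that of COL4A5 in KO2 likewise (0.23 without the second KO2 library).

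PXDN, a peroxidase that crosslinks collagen IV, was higher in KO1 (0.66) and lower in KO2 (-0.14), a call lost with the GC trend removed (-0.05). NTN4, a netrin of basement membranes, was higher in both clones (0.14 and 0.53), although its KO1 call was lost without the third KO1 library (0.13) or the first (0.12) or second (0.15) WT library. LAMB2, a laminin β chain, had -0.05 in KO1 and was lower in KO2 (-0.45). Of the other glycoproteins, EFEMP1 and SRPX were higher in both clones, at 0.59 and 0.50 in KO1 and 0.29 and 0.64 in KO2. FMOD, fibromodulin, a proteoglycan that binds collagen fibrils, averaged 0.0412 CPM in KO1 and 1.92 CPM in KO2, against 0.014 CPM in WT, and was called in KO2 only. Like COL6A2, FMOD passed the filter on low counts only through KO2.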

How the data were processed

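Total RNA was extracted with an RNeasy kit and made into TruSeq libraries, per the labels' protocols. The deposited tables hold raw read counts per gene symbol, 1 table per library, without normalization. Trim Galore and HISAT2 appear in the submitters' processing notes, with no version, as do hg38 and the mouse builds mm10 and GRCm38, without saying what each was for. The symbols are human. The counter, annotation, strand setting and rule for multi-mapping reads were not given in the sources used here.

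Counts were tested with edgeR 4.0.16 (R 4.3.3), with filterByExpr, TMM scaling and a robust quasi-likelihood fit with 1 mean per group over all 9 libraries, with p-values adjusted over all 17759 genes tested. The biological coefficient of variation was 7.46%. A count of 0 allows up to 3 counts, or 0.0305 to 0.0574 CPM, which covers counting error only. Libraries of the same group all differed by more than sampling noise, with chi-square over degrees of freedom from 6.36 to 31.9. CPM per kb uses the APPRIS principal transcript of GENCODE 29 (GRCh38), which also gave GC content and neighbours. Neighbours were the next 10 protein-coding genes on each side by start position (fewer near a chromosome end) whose mean log2 CPM reached 2. A lowess curve of span 0.3 per library gave the GC trend. Promoter windows came from RefSeq (GRCh38.p14).

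The 44 genes and the other lists were chosen with earlier results of these data known. Values per library are given by rule for up to 6 genes per direction called in both clones, 6 in opposite directions, 5 per direction called in 1 clone, and the highest gene per kb of each role, and of each other list the 4 genes with the smallest p are named, except that a gene the rule names is not reported here. COL4A1, COL8A1, LAMB1 and COL6A1 were added after their values were seen. Alternatives were other scalings, filters and tools (DESeq2 1.42.0, limma 3.58.1), a replicate block, the GC correction and leaving out each library.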

Additional observations from a re-analysis of the deposited data

Results flagged for a closer look

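A difference between the clones, KO1 minus KO2 in edgeR's quasi-likelihood test, drew attention to 29 of the 40 tested matrix genes (adjusted p under 0.05). By the same test 48.9% of all tested genes differed. In each case the contrast was KO1 against KO2 directly, with 3 libraries of each. The spread was estimated in the fit over all 9 libraries, WT included. In log2 units, the genes higher in KO1 were HAS2 by 2.73, VCAN by 2.31, LAMA4 by 1.18, LAMA5 by 1.02, FBN1 by 1.01, THBS1 by 0.96 and COL18A1 by 0.95. COL4A2 was higher in KO1 by 0.71, LAMB1 by 0.67, COL4A1 by 0.62, PLOD2 by 0.60 and COL8A1 by 0.53. Smaller differences in that direction were 0.33 for LAMC1, 0.33 for SERPINH1, 0.26 for LAMA3, 0.23 for PLOD1, 0.21 for P4HA1 and 0.20 for LOXL2. The genes lower in KO1 than in KO2 were FKBP10 with -3.68, TNC with -1.24, COL5A2 with -1.16, FBLN1 with -1.07 and COL5A1 with -1.01. COL6A2 had a fitted -4.75, which rests on 1, 3 and 4 counts in KO1 and 49, 66 and 53 in KO2. HSPG2 had -0.70, HAS3 had -0.46, COL13A1 had -0.38, FN1 had -0.35 and P4HA2 had -0.22. The call was lost without the first KO1 library (0.76) or the third (0.99) for COL18A1, without the third KO1 library for HSPG2 (-0.68) and without the third KO2 library for LOXL2 (0.18).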

How the results depend on the processing

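Of 120 log2 changes of matrix genes (40 genes in KO1, in KO2 and between the clones), 85 had the same call under every alternative and 35 changed under at least 1, of which 27 changed under one other than leaving out a library. DESeq2-type size factors changed none of them. Removal of the GC trend moved the counts most: 25 genes were higher and 3 lower in KO1, 19 were higher in KO2, and 24 were higher for the mean of both clones, where 24.6%, 14.8%, 31.4% and 27.4% of all tested genes were. It also turned the direction of COL18A1 (0.31), COL13A1 (0.11), LAMA5 (0.20), AGRN (0.40) and LAMB2 (0.19) in KO1, and of LAMB3 (0.11), AGRN (0.13) and LOXL2 (0.12) in KO2. No scaling tried moved the median of all genes by over 0.1. Leaving out 1 library at a time, 4 to 7 of the other matrix genes were lower in KO1, the 7 without the third WT library, and 3 to 7 genes of the list were lower for the mean of both clones, the 3 without the second WT library. Deviations of libraries of the same number had correlations from -0.53 to 0.48, and 3 of the 9 libraries correlated best with one of their own number. The check showed no steady pairing by number, but with so few libraries it cannot exclude one. The fit with a replicate block called 15 genes higher and 4 lower in KO1, the one lost being COL1A1 (-0.41, adjusted p = 0.0873). It called 12 higher and 13 lower in KO2, and 13 higher and 4 lower for the mean of both clones. Of all tested genes the block fit called fewer than the main fit in each direction. The shares were under 18% higher and under 16.8% lower in KO1. In each direction they were under 24.7% in KO2 and under 20.4% for the mean of both clones. COL1A2, COL3A1, THBS2 and SPOCK1 had too few counts to be tested.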
